A study of Mus musculus with 9 samples.

Results

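The genes described here are 8 enzymes of cholesterol synthesis (Hmgcs1, Mvd, Idi1, Fdps, Fdft1, Sqle, Lss and Dhcr7) and Srebf2, which encodes a transcription factor of the pathway. They were chosen by name, and all 9 were found among the 24356 gene symbols of each expression table. RNA from brown adipose tissue (BAT) was sequenced in 9 mice, 1 library per animal. The GHRH-KO mice carried a knockout of growth hormone releasing hormone, and the WT mice were their littermates. All were of a mixed C57BL6 and 129SV background, were fed the same standard chow without restriction, with no other treatment named in the labels, and their ages were not analysed here. The groups were 2 KO females, 2 KO males, 3 WT females and 2 WT males.

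Cholesterol is built from acetyl-CoA through the mevalonate pathway. Isoprene units are made and joined to squalene, squalene is closed to lanosterol, and lanosterol is trimmed to cholesterol. When sterols in the endoplasmic reticulum run low, the chaperone Scap carries the precursor of the Srebf2 protein to the Golgi apparatus, where proteases release the active factor. That factor then raises transcription of the enzymes. Srebf2 is itself regulated largely by this cleavage, which RNA levels do not measure.

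Expression was given as FPKM, fragments scaled to transcript length and to the size of the library. The numbers of fragments per library are unknown here, and relative depth estimated from low values ran from 0.915 to 1.14 times that of WT female 1. The targeted gene, Ghrh, was detected only in libraries labelled KO, and why was not tested. Each of the 5 libraries labelled WT had 0 FPKM of Ghrh, while the 4 labelled KO had 0.233 to 0.846 FPKM, so every direction below takes the labels as given. Igf1, a target of growth hormone named after its values were seen, was at 2.13 to 8.80 FPKM in WT and 0.713 to 2.46 FPKM in KO (log2 fold change -1.84, limma adjusted p 0.0661). The 9 brown adipocyte markers were all detected, with a summed level of 6393 to 8274 FPKM in KO and 6016 to 7834 FPKM in WT. Skeletal muscle markers were also present, all 10 of them detected and summing to 2217 to 10167 FPKM in KO against 360 to 1915 FPKM in WT. KO male 1 stood apart, with Spearman correlations of 0.924 to 0.934 with the other libraries, which reached 0.958 or more among themselves. Its 5 lymphocyte markers summed to 133 FPKM, against 1.08 to 2.62 FPKM in the other 8 libraries. In whole tissue, fewer cells of a type and less RNA per cell cannot be told apart.

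The bases in front of these genes are shown because sterol control of the pathway acts there. RefSeq promoters (GRCm38.p6) were at hand for 6 of the 9 genes: Hmgcs1, Mvd, Idi1, Lss, Dhcr7 and Srebf2. The 250 bases before each start site were searched on both strands for 4 motifs. These were the core of the sterol regulatory element (TCACNCCAC), the NF-Y box (CCAAT), the Sp1 box (GGGCGG) and the E-box CACGTG. The sterol element core was found in 1 of the 6 genes, Hmgcs1, and in 1.053% of all 32851 promoters. The NF-Y box and the Sp1 box were each found in 6 of 6 genes, against 33.85% and 32.74% of all promoters. The E-box was found in 1 of 6, Dhcr7, against 6.021%. All matches of Idi1, and the NF-Y and E-box matches of Dhcr7, lie past the first annotated base of the gene in GENCODE M21. They are thus not in front of the whole gene, and the shares of all promoters were not cut at that base either. Dhcr7 has 3 start sites, and a match before any of them was counted, so shares by gene are the closer background: 1.225%, 37.49%, 35.36% and 6.86% of 27025 genes for the 4 motifs in that order. Below, 4 of the stretches are given 5′ to 3′ on the strand of the gene, with all matches in capitals, no one overlapping another. Those of Lss and Srebf2 end just before the first annotated exon. A match is a string of letters and not a shown binding site.
Hmgcs1, chr13:119690101-119690350, plus strand: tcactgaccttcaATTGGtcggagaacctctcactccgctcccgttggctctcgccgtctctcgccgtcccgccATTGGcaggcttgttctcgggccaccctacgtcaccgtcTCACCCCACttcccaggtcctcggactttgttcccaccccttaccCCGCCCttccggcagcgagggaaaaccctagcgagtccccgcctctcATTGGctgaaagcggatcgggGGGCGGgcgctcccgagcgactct
Mvd, chr8:122443423-122443672, minus strand: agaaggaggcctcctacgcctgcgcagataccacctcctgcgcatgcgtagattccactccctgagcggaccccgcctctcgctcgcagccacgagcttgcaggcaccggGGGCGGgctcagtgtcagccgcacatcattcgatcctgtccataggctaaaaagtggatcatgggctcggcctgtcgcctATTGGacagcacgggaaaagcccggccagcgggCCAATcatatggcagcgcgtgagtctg
Lss, chr10:76531355-76531587, plus strand: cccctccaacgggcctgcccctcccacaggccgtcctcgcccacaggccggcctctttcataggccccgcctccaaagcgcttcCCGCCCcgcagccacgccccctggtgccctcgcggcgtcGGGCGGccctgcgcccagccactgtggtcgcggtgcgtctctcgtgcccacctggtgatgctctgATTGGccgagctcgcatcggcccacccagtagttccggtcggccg
Srebf2, chr15:82147019-82147180, plus strand: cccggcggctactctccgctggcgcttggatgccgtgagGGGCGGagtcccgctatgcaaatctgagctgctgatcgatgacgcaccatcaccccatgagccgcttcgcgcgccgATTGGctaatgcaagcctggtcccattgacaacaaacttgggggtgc
The sterol element core of Hmgcs1 spans positions -137 to -129 before its start site, and NF-Y boxes lie on both sides of it.

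All 9 genes were expressed in every library, and none passed the threshold between KO and WT. The test was limma on log2 FPKM over the 14675 genes above 0 in all 9 libraries, with a Benjamini-Hochberg adjusted p under 0.05. With genotype averaged over the sexes, 0 of 9 were called, where 3.6% of all genes tested were called (1.43% higher and 2.17% lower in KO). At an unadjusted p under 0.05 limma also gave 0 of the 9, against 20.2% of all genes tested, and an ordinary linear model gave 0 before and after adjustment. The 9 log2 fold changes ran from -0.20 to 0.35, with 4 above 0 and 5 below. Their median was -0.05, beside -0.07 for all genes tested. No member had KO and WT libraries free of overlap, while 9.07% of all genes did.

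By the median over the 9 libraries the order of levels was Hmgcs1 (45.9 FPKM), Fdft1 (29.1 FPKM), Fdps (18.7 FPKM), Idi1 (9.98 FPKM), Dhcr7 (6.37 FPKM), Srebf2 (6.25 FPKM), Lss (2.81 FPKM), Mvd (2.38 FPKM) and Sqle (1.99 FPKM). FPKM is scaled to transcript length, so levels of different genes may be set side by side. Neighbours in this order had overlapping ranges, with the exception of Srebf2 and Lss. Within libraries, Fdps exceeded Idi1 and Idi1 exceeded Dhcr7 in 9 of 9, whereas Dhcr7 exceeded Srebf2 in only 5 of 9. Lss, Mvd and Sqle were at a few FPKM, and the median was lowest for Sqle, a rate-limiting oxygenase.

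Hmgcs1 (chr13:119690379-119708260, GRCm38) encodes the synthase that makes HMG-CoA, early in the mevalonate steps. Its level was 45.9, 49.1 and 58.2 FPKM in WT females and 43.4 and 41.3 FPKM in KO females. In males it was 33.8 and 52.0 FPKM in WT and 30.4 and 47.3 FPKM in KO. Both KO females were below all 3 WT females, a separation that 40.4% of all genes tested showed in one direction or the other in females, and the males overlapped. The log2 fold change was -0.26 in females, -0.14 in males and -0.20 when averaged (95% interval -0.61 to 0.20, limma adjusted p 0.594). Gm48342 overlaps 6190 bases of the gene on the opposite strand.

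Mvd (chr8:122433601-122443422) encodes the decarboxylase that ends the mevalonate steps. WT females were at 3.85, 2.16 and 1.73 FPKM and KO females at 1.81 and 2.45 FPKM. WT males were at 1.71 and 2.96 FPKM and KO males at 2.38 and 2.496 FPKM. The KO values lay inside the WT range in both sexes. KO differed from WT by an averaged log2 fold change of -0.05 (95% interval -0.69 to 0.60, limma adjusted p 0.960), the widest interval of the 9, and its sign turned under median centring of the libraries. The whole gene is overlapped by Gm20388 on the opposite strand, and whether the counting used strand is not given in the sources used here.

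Idi1 (chr13:8885501-8892451) encodes the isomerase that interconverts the 2 isoprene units. Its level was 9.84, 9.03 and 7.66 FPKM in WT females, 9.69 and 10.6 FPKM in KO females, 10.8 and 9.98 FPKM in WT males and 10.5 and 16.4 FPKM in KO males. KO male 2 was the highest of all libraries, and the other KO values lay within the WT range over both sexes. Averaged over the sexes, the log2 fold change was 0.27 (95% interval -0.07 to 0.61, limma adjusted p 0.361). Gm48574 overlaps 323 bases of the gene on the opposite strand.

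Fdps (chr3:89093588-89101959) encodes the synthase of farnesyl diphosphate, where the sterol path parts from protein prenylation and ubiquinone synthesis. WT females were at 18.7, 15.5 and 14.5 FPKM and KO females at 18.7 and 20.6 FPKM. WT males were at 23.5 and 17.5 FPKM and KO males at 21.3 and 34.3 FPKM. KO female 1 and WT female 1 were all but equal, and KO male 2 was again highest. The averaged log2 fold change, 0.35, was the largest of the 9 (95% interval -0.04 to 0.73, limma p 0.0721, adjusted p 0.299). Without KO male 1 the log2 fold change was 0.52 for Fdps (limma adjusted p 0.0753) and 0.43 for Idi1 (adjusted p 0.0694), and without KO male 2 it was 0.17 (adjusted p 0.475) and 0.11 (adjusted p 0.593). The value for Idi1 was the lowest adjusted p of any of the 9 genes in the comparisons and alternatives run. The measurement of Fdps and Idi1 may be less certain for shared sequence, which was not tested. Among 50-base stretches of their transcripts in GENCODE M21, 26.2% of Fdps and 17.7% of Idi1 also occur in transcripts of other genes, mostly Gm43738 and Gm13502, which have no row of their own in the tables. Gm43738 also overlaps 7512 bases of the Fdps gene on the same strand.

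Fdft1 (chr14:63145150-63179578) encodes squalene synthase, the first enzyme committed to sterols. It was at 29.1, 18.5 and 27.3 FPKM in WT females and 24.4 and 29.0 FPKM in KO females. It was at 60.4 and 35.4 FPKM in WT males and 32.0 and 33.2 FPKM in KO males. WT male 1 was far above the rest, and both KO males were below both WT males, which 39.4% of all genes tested matched in one direction or the other in males. The log2 fold change was 0.12 in females and -0.51 in males. The difference between the sexes, -0.62, did not pass the test (95% interval -1.52 to 0.28, limma adjusted p 0.730), and the averaged log2 fold change was -0.19 (adjusted p 0.662), or -0.0014 without WT male 1. For Fdft1, 9.38% of 50-base stretches are shared, all of these with Gm6781. The protein-coding gene Ctsb overlaps 774 bases of Fdft1 on the opposite strand.

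Sqle (chr15:59315077-59331192) encodes squalene epoxidase. Its level was 2.54, 1.99 and 1.16 FPKM in WT females, 1.78 and 1.94 FPKM in KO females, 2.03 and 2.90 FPKM in WT males and 1.95 and 2.91 FPKM in KO males. Within males the pairs of values were nearly the same in both genotypes. The averaged log2 fold change was 0.01 (95% interval -0.60 to 0.62, limma adjusted p 0.992), an interval that leaves room for a change of about 1.54-fold upwards or to 0.660-fold downwards.

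Lss (chr10:76531588-76557138) encodes lanosterol synthase, which closes the sterol rings. Its level was 3.10, 2.66 and 2.34 FPKM in WT females and 2.53 and 2.81 FPKM in KO females, and 3.74 and 3.07 FPKM in WT males against 2.43 and 3.84 FPKM in KO males. The values of both genotypes were interleaved in both sexes. The averaged log2 fold change was -0.08 (95% interval -0.48 to 0.32, limma adjusted p 0.865). Its gene is overlapped over 11268 bases by 4930483K19Rik on the opposite strand.

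Dhcr7 (chr7:143823145-143848410) encodes the reductase of the last step of one branch to cholesterol. It had the narrowest range of the 9 genes, its highest library being 1.44 times its lowest. WT females were at 6.93, 6.64 and 5.51 FPKM, KO females at 5.75 and 6.27 FPKM, WT males at 7.92 and 6.37 FPKM and KO males at 5.96 and 7.47 FPKM. Its averaged log2 fold change was -0.08, with the tightest interval of the 9 (-0.37 to 0.20, limma adjusted p 0.795). In linear terms a KO level below 0.774 or above 1.152 times that of WT lay outside it.

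Srebf2 (chr15:82147181-82205379), the regulator, was at 6.61, 6.24 and 5.97 FPKM in WT females and 6.54 and 6.25 FPKM in KO females. In males it was at 5.26 and 7.04 FPKM in WT and 9.01 and 5.45 FPKM in KO. The females were level, and the highest value was that of KO male 1, the library with the lymphocyte markers. The averaged log2 fold change was 0.12 (95% interval -0.26 to 0.50, limma adjusted p 0.780), and -0.065 without KO male 1. The part of the other cells in the value of that library was not tested. Gm49502 overlaps 2110 bases of the Srebf2 gene on the same strand.

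**Figure D1:**
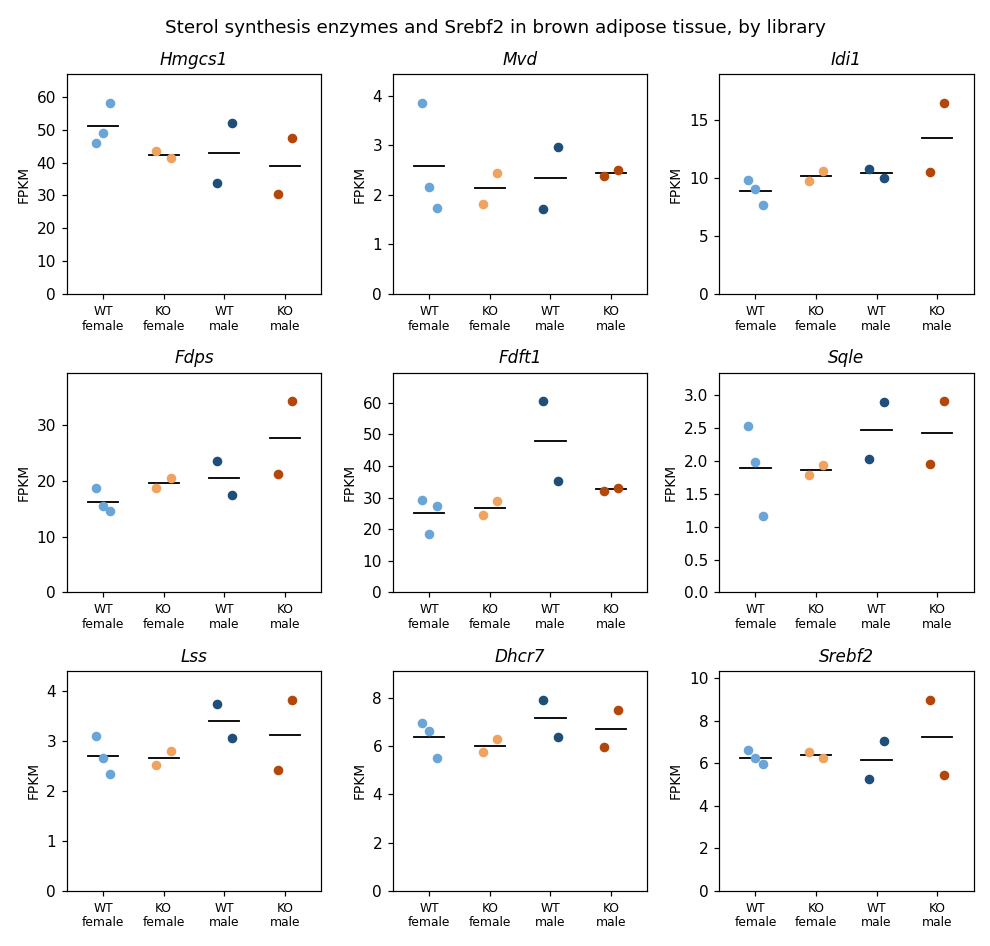
FPKM (vertical axes, from 0) of the 8 enzymes and Srebf2 in each group of genotype and sex, 1 point per library, with bars at the group means. KO and WT points overlap for each gene when the sexes are pooled, and KO male 2 is the highest point for Idi1 (16.4 FPKM) and Fdps (34.3 FPKM).

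**Figure D2:**
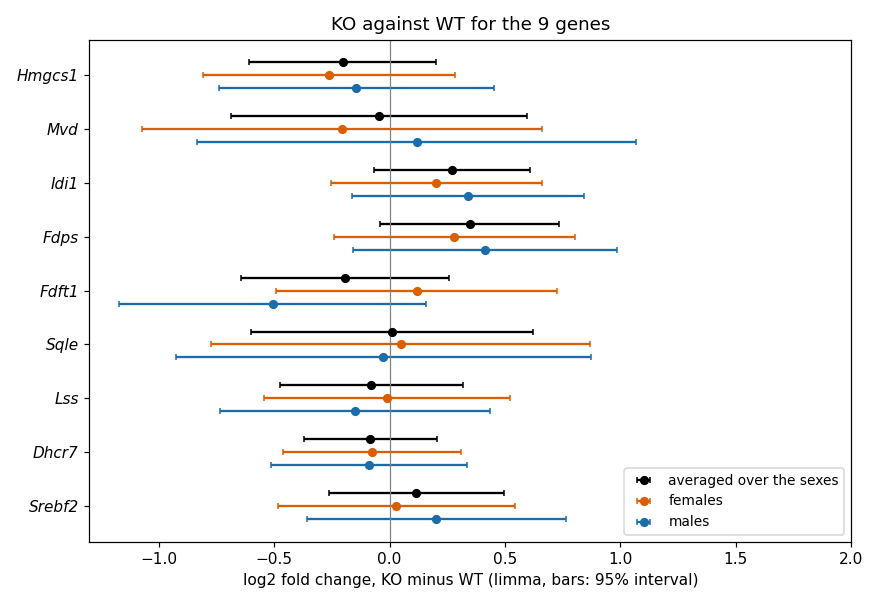
Log2 fold change of KO against WT (horizontal axis) for each of the 9 genes, averaged over the sexes, in females and in males. Points are limma estimates and bars their 95% intervals, and each interval includes 0.

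Within each sex the result was the same in count, which says little where so few of all genes were called. In females 0 of 9 genes were called, beside 0.0204% of all genes tested (3 genes), and in males 0 of 9, beside 0.0136% (2 genes). These backgrounds moved with single libraries, from 0 to 19 genes in females (19 without KO male 1) and from 0 to 1289 in males (1289 without KO male 2, 333 without WT male 1), while the 9 genes stayed at 0 calls. Neither limma nor the ordinary linear model gave any of the 9 an unadjusted p under 0.05 in either sex, where limma gave 12.7% of all genes in females and 16.6% in males. The KO and WT libraries did not overlap for 2 of 9 genes in females (Hmgcs1 and Fdps) and for 1 of 9 in males (Fdft1), below the shares of all genes given above. The genotype by sex interaction called 0 of 9 genes and 0% of all genes, and 0 of the 9 had an unadjusted p under 0.05 by limma or the ordinary linear model, where limma gave 1028 genes in all. Without KO male 2 the interaction called 723 genes, and 0 of the 9.

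Between the sexes, 8 of the 9 log2 differences were above 0 (higher in males), with a median of 0.27, beside 0.01 for all genes tested. Hmgcs1 was the exception at -0.22. No member passed adjustment, where 0.0136% of all genes did (2 genes, or 808 without KO male 2). Fdft1 had a log2 difference of 0.60 (95% interval 0.15 to 1.05, limma p 0.015, adjusted p 0.349) and Fdps one of 0.39 (limma p 0.0473, adjusted p 0.471), the 2 members with an unadjusted p under 0.05, beside 10.4% of all genes. The ordinary linear model gave 0 after adjustment and 1 of the 9, Fdft1, before it, beside 10.5% of all genes.

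Most pairs of the 8 enzymes rose and fell together across the libraries, while Hmgcs1 did so with few of the others. Each enzyme's log2 FPKM was centred on its own mean, and the 8 were averaged in each library. This mean was 0.36 in KO male 2 and -0.30 in WT female 3, the ends of the range. The other KO libraries lay at -0.18, -0.02 and -0.10, and the other WT libraries at 0.13, -0.17, 0.14 and 0.14. KO male 2 held the highest value of the 9 libraries for 4 of the 8 enzymes, and WT female 3 the lowest for 5. Both genotypes thus spanned most of the range.

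Over the 9 libraries, Pearson's r was above 0 for 21 of the 28 pairs of enzymes, with a median of 0.42. The share among pairs of all genes tested is not given here, so these counts have no background. The closest pairs were Idi1 with Fdps (r 0.97, Spearman's rho 0.92) and Lss with Dhcr7 (r 0.93, rho 0.92). Without the 2 libraries farthest from the median of the first gene of the pair, r was 0.94 and 0.83. Hmgcs1 had an r above 0 with 1 of 7 other enzymes and a median of -0.26, but with 5 of 7 and a median of 0.09 once each library was taken as its deviation from the mean of its group. Srebf2 RNA had an r above 0 with 2 of the 8 enzymes, again with a median of -0.26, and its lowest was -0.59, with Lss. That last value was -0.11 without the 2 farthest libraries. By deviations from the group means the r of Srebf2 was -0.77 with Lss, -0.82 with Fdps and -0.73 with Idi1. In a group of 2 libraries the deviations are equal and opposite, so such an r rests on fewer than 9 free values. No library was left out of these. For Fdps and Idi1 too the plain r was near 0 without the 2 farthest libraries (-0.095 and -0.0017). The points of each r share their library, its scaling and the dissection, and both genotypes and sexes are in them, so these values only describe the 9 libraries.

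The mean of 11 other sterol synthesis enzymes followed that of the 8 (r 0.81, rho 0.78, and an r of 0.88 without the 2 end libraries). So did the mean of 10 fatty acid synthesis genes, at r 0.83 and rho 0.80, and an r of 0.54 without those libraries. Without the end libraries r went from 0.49 to 0.93 for SREBP processing and protein turnover and from 0.01 to 0.71 for uptake and transport. It also went from -0.12 to 0.40 for efflux and storage and from -0.25 to 0.54 for the non-sterol isoprenoid branch. Markers of white adipocytes (0.13 to 0.62), fibroblasts (0.13 to 0.54) and Schwann cells (0.15 to 0.55) rose as well, so the rise was not particular to sterol genes. Against skeletal muscle markers r was 0.05, or -0.54 without the end libraries, against lymphocyte markers -0.19, or -0.24, and against endothelial markers -0.44, or 0.16. Of 10768 genes outside all lists with a mean of at least 1 FPKM, Cyb5b (0.95), Lactb2 (0.92), Nudt4 (0.90) and Gsta3 (0.89) were among the 5 with the highest r to the 8-enzyme mean. These genes were picked by that r out of 10768 over only 9 libraries, so high values come with the choice and show no link to the enzymes. Their r without the 2 end libraries, over libraries also used for the choice, ran from 0.78 for Lactb2 to 0.88 for Cyb5b. Cyb5b encodes a cytochrome b5 of the outer mitochondrial membrane and was at 61.3 FPKM in KO male 2 and 37.3 FPKM in WT female 3.

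**Figure D3:**
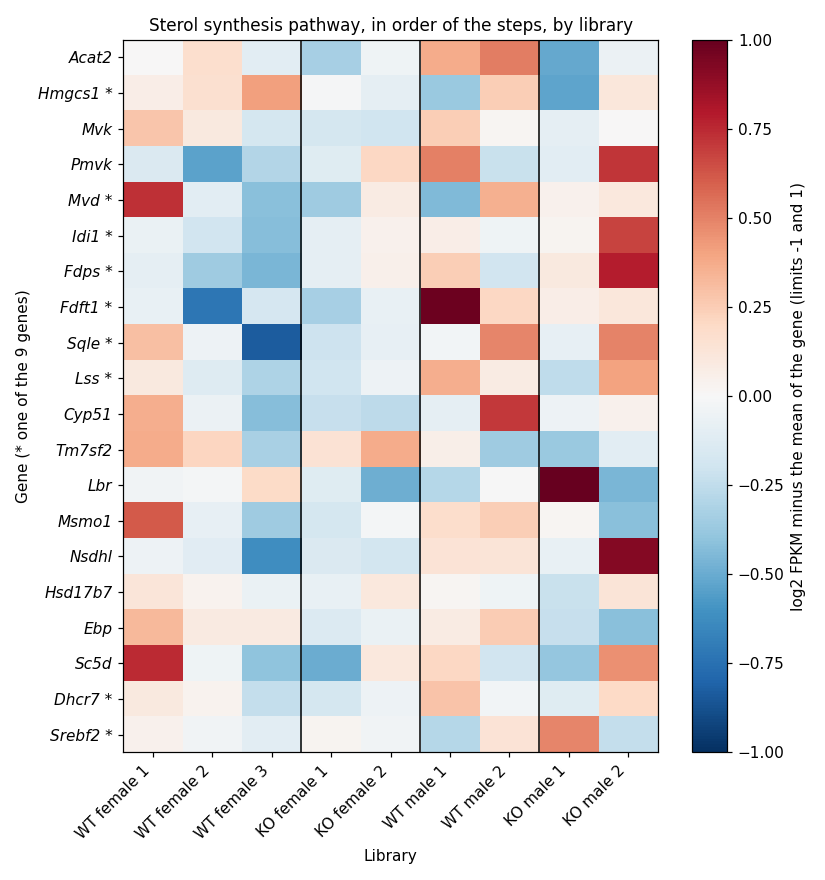
Log2 FPKM of 19 sterol synthesis enzymes and Srebf2 (rows, about in the order of the steps) in the 9 libraries (columns), each gene centred on its mean, with colours limited to -1 and 1. Asterisks mark the 9 genes. Most enzymes are pale or blue in WT female 3 and many are red in KO male 2.

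Among the rest of the pathway, 4 of the 55 genes described here passed the threshold with genotype averaged over the sexes, all 4 lower in KO. This 7.27% stands beside the 3.6% of all genes. The KO and WT libraries did not overlap for 8 of the 55, or 14.5%, beside 9.07% of all genes. The groups were 11 further sterol synthesis enzymes, 8 genes of SREBP processing and protein turnover, 7 of cholesterol uptake and transport, 7 of efflux and storage, 12 of the non-sterol isoprenoid branch and 10 of fatty acid synthesis. Their 55 log2 fold changes had a median of -0.06, with 20 above 0 and 35 below. Of all 14675 genes tested, 5502 were above 0 and 9173 below, a similar share, so these signs show no lean of the pathway.

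Of the 11 further enzymes, none was called by limma or, after adjustment, by the ordinary linear model, and limma gave 2 an unadjusted p under 0.05. Their log2 fold changes ran from -0.47 to 0.26 with a median of -0.14, 4 above 0 and 7 below. Acat2 and Ebp, named after their values were seen, had the lowest p. Acat2, a thiolase that joins acetyl-CoA units, was at 59.1, 66.1 and 54.8 FPKM in WT females, 46.9 and 57.1 FPKM in KO females, 76.0 and 83.9 FPKM in WT males and 41.3 and 56.6 FPKM in KO males. Its groups overlapped in females only (log2 fold change -0.47, limma adjusted p 0.0700). Ebp, a sterol isomerase, was at 15.8, 13.5 and 13.4 FPKM in WT females, 11.5 and 12.0 FPKM in KO females, 13.4 and 15.1 FPKM in WT males and 10.7 and 9.47 FPKM in KO males. Each KO library was below each WT library, but at a log2 fold change of -0.38 the adjusted p was 0.0584.

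None of the 8 genes of SREBP processing and protein turnover was called by limma, 7 of their log2 fold changes were below 0, and the median was -0.08, close to that of all genes. Srebf1 alone had an unadjusted p under 0.05. It encodes the related factor that favours fatty acid synthesis. It was at 63.2, 42.7 and 33.6 FPKM in WT females and 39.9 and 49.5 FPKM in KO females, and at 76.8 and 70.3 FPKM in WT males and 40.5 and 40.2 FPKM in KO males. The females overlapped and the males did not, and the averaged log2 fold change was -0.44 (limma p 0.0386, adjusted p 0.215). Scap was at 9.002 to 11.4 FPKM in WT and 9.79 to 10.2 FPKM in KO (log2 fold change -0.10, adjusted p 0.587). Insig1, the sterol-dependent anchor that holds Scap back, was at 34.6 to 76.5 FPKM in WT and 26.5 to 53.5 FPKM in KO (log2 fold change -0.15, adjusted p 0.833).

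Of the 7 genes of uptake and transport, 2 were called lower, none was called higher, and the median log2 fold change was -0.22. Npc2 carries cholesterol out of lysosomes. It was at 89.4, 74.5 and 68.8 FPKM in WT females, 91.5 and 86.6 FPKM in WT males, 44.1 and 53.7 FPKM in KO females and 64.2 and 53.7 FPKM in KO males. The groups did not overlap, and the log2 fold change was -0.63 (SE 0.11, limma adjusted p 0.0347). Scarb1, the receptor for selective uptake from HDL, was at 36.2, 31.9 and 29.7 FPKM in WT females and 27.5 and 48.6 FPKM in WT males. It was at 19.5 and 16.9 FPKM in KO females and 20.9 and 16.8 FPKM in KO males. Again each KO value was below each WT value (log2 fold change -0.90, SE 0.17, limma adjusted p 0.0403). Lipa, the lysosomal acid lipase, named after its values were seen, lay the other way without passing the threshold, at 40.1 to 44.8 FPKM in KO and 30.8 to 37.3 FPKM in WT (log2 fold change 0.28, limma adjusted p 0.105).

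Of the 7 genes of efflux and storage, 1 was called lower, none was called higher, and the median log2 fold change was -0.07. This was Abca1, the transporter that loads cholesterol onto nascent HDL. It was at 5.51, 5.71 and 6.16 FPKM in WT females, 4.32 and 4.34 FPKM in KO females, 10.95 and 8.12 FPKM in WT males and 4.73 and 3.69 FPKM in KO males. KO values were lower in both sexes, by a log2 fold change of -0.80 when averaged (SE 0.12, limma adjusted p 0.0318), with -0.42 in females and -1.17 in males. The difference between the sexes did not pass adjustment (log2 -0.76, limma p 0.0171, adjusted p 0.657).

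Of the 12 genes of the non-sterol isoprenoid branch, 1 was called lower, none was called higher, and the median log2 fold change was -0.05. Fntb encodes the beta subunit of farnesyltransferase, which uses the product of Fdps to anchor proteins in membranes. It was at 5.36, 5.04 and 5.17 FPKM in WT females, 3.20 and 3.28 FPKM in KO females, 5.03 and 5.90 FPKM in WT males and 4.52 and 4.56 FPKM in KO males. All KO libraries were lower (log2 fold change -0.47, SE 0.09, limma adjusted p 0.0385). Pdss2, a subunit of the synthase of the ubiquinone side chain, named after its values were seen, was at 9.06 to 10.7 FPKM in KO and 7.15 to 8.28 FPKM in WT, without overlap (log2 fold change 0.36, limma adjusted p 0.0620).

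**Figure D4:**
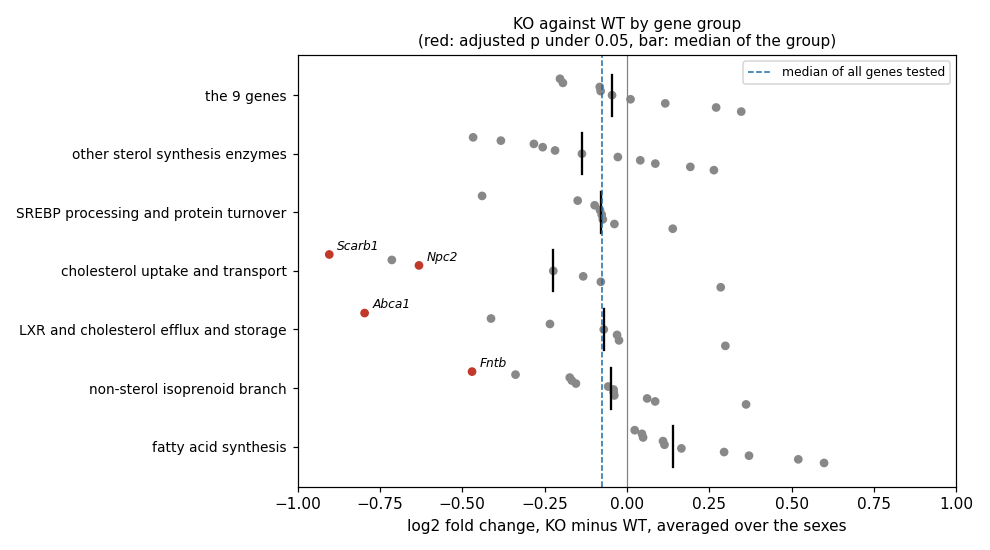
Log2 fold change of KO against WT averaged over the sexes (horizontal axis) for the 9 genes and the 6 other groups of the pathway, 1 point per gene. Red points passed an adjusted p under 0.05, black bars are group medians and the dashed line is the median of all genes tested, -0.07. The 9 genes lie between -0.20 and 0.35, and the red points are Scarb1, Abca1, Npc2 and Fntb, all below 0.

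These 4 calls were not firm. Without WT female 1, WT female 2 or WT female 3 the 55 genes gave 0 calls. All genes tested then gave 9, 23 and 38 calls in place of 529, so the loss was shared by genes in general. The adjusted p spanned, across the alternatives, 0.0278 to 0.135 for Npc2, 0.00841 to 0.140 for Scarb1, 0.0264 to 0.135 for Abca1 and 0.0297 to 0.159 for Fntb. Each of the 4 genes kept its direction in all 20 of its alternatives. As every KO value of these genes was below every WT value, leaving out a library could not have turned the sign, so this adds no support. With 1 library left out, the log2 fold changes ran from -0.70 to -0.56 for Npc2, -1.11 to -0.70 for Scarb1, -0.90 to -0.69 for Abca1 and -0.53 to -0.41 for Fntb. The skeletal muscle markers had the same division as these genes, with every KO library above every WT library in their sum, and 3 of the 10 were called higher in KO. Of the 6 white adipocyte markers, 4 were tested, 1 (Lep) was called lower, and the sums were 33.5 to 90.6 FPKM in KO and 80.0 to 321 FPKM in WT, with Hoxc10 at 0 in each library. The 5 fibroblast markers summed to 105 to 183 FPKM in KO and 137 to 246 FPKM in WT, with 3 called lower. All 6 macrophage markers had log2 fold changes below 0 (median -0.48), 1 of them, Cd163, was called lower (limma adjusted p 0.0347), and none was at 0 in every library. Their sums were 34.6, 24.6 and 29.1 FPKM in KO female 1, KO female 2 and KO male 2, below each WT library (40.9 to 98.6 FPKM), and 403 FPKM in KO male 1. The part of muscle, white adipocytes, fibroblasts or macrophages in the 4 differences was not tested.

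**Figure D5:**
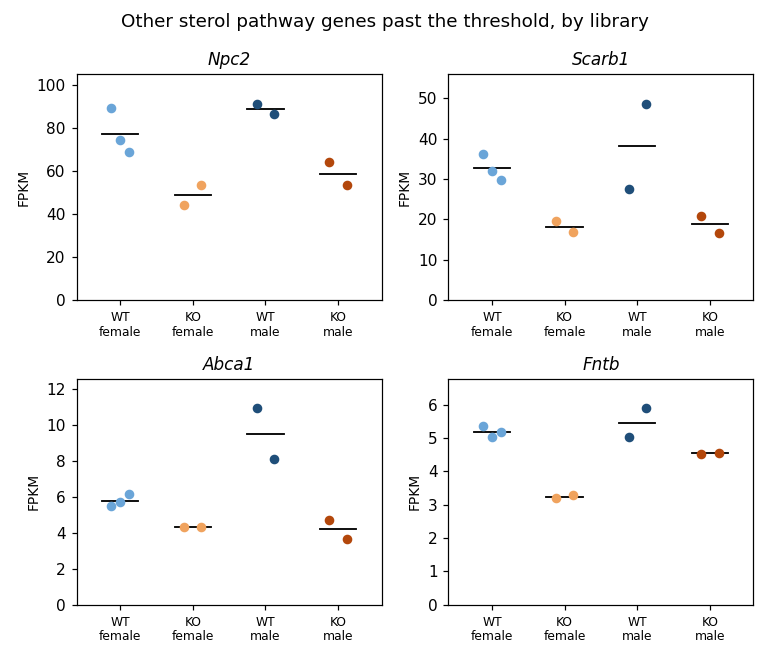
FPKM (vertical axes, from 0) of the 4 other pathway genes that passed the threshold, by group, 1 point per library with bars at the group means. In each panel all KO points lie below all WT points.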

How the data were processed

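The deposited values were FPKM per gene symbol, 1 table for each library, which the authors made from paired-end reads of poly A+ RNA (TruSeq) with bcl2fastq 1.8.4, TopHat2 2.0.11 on mm10 and, for abundances, Bowtie. The annotation is not given in the sources used here. HiSeq2000 and HiSeq2500 are both named, without saying which library ran on which. Values were used as deposited on the log2 scale, with no pseudocount, for the 14675 genes above 0 in all 9 libraries (76 of these held a value under 0.001). The model was limma 3.58.1 in R 4.3.3 with a mean for each group of genotype and sex and a mean-variance trend, tested on simulated data. Genes were called at a Benjamini-Hochberg adjusted p under 0.05 over all genes tested. The 9 genes, the gene lists and the tests were chosen with earlier results of these data known. Named genes are the 9, those of the other pathway lists called with genotype averaged over the sexes or in the interaction, Insig1, Srebf1 and Scap, genes among the 5 most like the 8-enzyme mean, and Ghrh. Some genes that the lists or this rule held are not reported here, and counts over lists leave them out. Markers of endothelial cells (summed 89.1 to 141 FPKM in KO, 118 to 151 in WT), Schwann cells (34.6 to 70.4, 49.0 to 66.8) and cell division (0.195 to 6.71, 0.556 to 1.16) were also summed. Positions and shared sequence are from GENCODE M21. In the tables, 25 symbols had become dates. Alternatives were 2 pseudocounts (0.1 and 1), 2 filters, 2 normalizations, 4 other models or thresholds, an additive model and leaving out each library. Figures used Python 3.11.15 and matplotlib 3.10.9.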

Additional observations from a re-analysis of the deposited data

Results flagged for a closer look

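In groups of 4 KO and 5 WT libraries, a value was singled out when its gap to the nearest other, divided by the range of the group on the log2 scale, passed Dixon's critical value for that number of libraries. Of 32 groups in 16 genes, 3 were singled out, where chance gives about 1 in 20. Idi1 was high in KO male 2 (ratio 0.835). Mvd was low in KO female 1 (0.852). Srebf1 was high in KO female 2 (0.932). KO mixes both sexes here, and no cause was tested.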

How the results depend on the processing

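In each of the 5 comparisons 0 of the 9 genes were called under each of the alternatives run, an unadjusted p under 0.01 in the ordinary linear model included. With only 9 genes, beside 3.6% of all genes called as reported with genotype averaged over the sexes, 0 calls were likely. That count therefore does not show stability. Calls over larger sets of genes moved. With genotype averaged over the sexes, the 55 other pathway genes gave 4 calls as reported, 1 with no filter and a pseudocount of 0.1, 2 with median centring, 0 in limma without the trend, 0 in the ordinary linear model with adjustment, 7 in that model at an unadjusted p under 0.01, 2 in the additive model, 6 of 54 with a mean of at least 1 FPKM, and 0 to 6 when 1 library was left out. All genes gave 529 calls as reported (210 higher, 319 lower), and in the same order 170, 222 (130 higher, 92 lower), 34, 19, 1107, 402 and 640, and 8 to 1020 when 1 library was left out. Signs turned for genes that were not called. Mvd was at 0.013 with median centring and Sqle at -0.0021 with a pseudocount of 1. Leaving out 1 library moved the averaged log2 fold change over -0.24 to 0.15 for Mvd, -0.15 to 0.16 for Sqle, -0.24 to 0.085 for Lss, -0.065 to 0.30 for Srebf2, -0.36 to -0.044 for Hmgcs1, 0.11 to 0.43 for Idi1, 0.17 to 0.52 for Fdps, -0.39 to -0.0014 for Fdft1, -0.16 to -0.00095 for Dhcr7 and -0.33 to 0.034 for Insig1. The cause was not tested. The median of all genes moved from -0.07 to -0.15 without KO male 1, to -0.0091 without KO male 2 and to -0.016 with median centring. No paired analysis was possible because the groups share no replicate numbers in the labels. With 2 or 3 animals in a group and unknown fragment counts, differences smaller than the intervals given could not be detected. Of the 9 genes, levels were lowest for Sqle, Mvd and Lss.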

Other observations

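The 10 fatty acid synthesis genes, which the related factor Srebf1 controls in many tissues, had no calls. All 10 averaged log2 fold changes were above 0, with a median of 0.14 beside -0.07 for all genes tested, but by sex 9 of 10 were above 0 in females (median 0.37) and 5 of 10 in males (median 0.01). In the average none was called by limma or by the ordinary linear model after adjustment. By limma 1 of the 10 had an unadjusted p under 0.05. This was Elovl6, a fatty acid elongase named after its values were seen, at 65.1, 47.7 and 48.6 FPKM in WT females, 88.5 and 100.3 FPKM in KO females, 109.3 and 55.6 FPKM in WT males and 83.1 and 122.5 FPKM in KO males (log2 fold change 0.60, limma adjusted p 0.180). KO females exceeded WT females and the males overlapped. KO male 2 held the highest of the 9 values for 6 of the 10 genes and WT female 3 the lowest for 5, as these libraries did for 4 and 5 of the 8 sterol enzymes. The 11 other sterol enzymes shared this less. KO male 2 was highest for 3 of them and lowest for 2, WT female 1 was highest for 4, and WT female 3 was lowest for 2.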
